A study of Rattus norvegicus with 12 samples.

Results

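The miRNAs rno-miR-551b-3p and rno-miR-344a-3p (miR-551b-3p and miR-344a-3p below) lay below 10 CPM (counts scaled to library size) in every library of normal rat gastric mucosa and were at a higher level in most libraries from mucosa exposed to the mutagen MNNG. They were taken by name from the deposited count tables, together with every other row whose name starts with miR-344, which gave 5 miRNAs of 649 in all. The first 2 had been picked because earlier results of these data showed them higher after exposure, so their values in exposed against normal mucosa are a description and carry no test. The other 3, miR-344b-1-3p, miR-344b-5p and miR-344g, were taken by name alone. No entry for the opposite arms, miR-551b-5p or miR-344a-5p, was among the deposited miRNAs.

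Small RNA libraries had been made from gastric mucosa in 3 groups of 4. The XLHZ group drank water with MNNG (N-methyl-N'-nitro-N-nitrosoguanidine), an alkylating carcinogen, for 24 weeks and was given the herbal Xianglianhuazhuo formula for 60 days. The model group, rats with chronic atrophic gastritis, had the 24 weeks of MNNG without the formula. The normal group was untreated. The disease model combined MNNG in the drinking water at 180 µg/ml with 2% sodium salicylate by gavage, 1 ml per 100 g, and cycles of 2 days of food and 1 day of fasting. Salicylate and fasting therefore cannot be told apart from MNNG. Strain, sex and age were not stated. Whether each library stands for its own rat is not labelled, and p-values therefore reflect library-to-library spread that could be technical.

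A mature miRNA guides silencing complexes to messenger RNAs mainly through its seed, bases 2 to 8 from its 5′ end. It is cut from one arm of a hairpin, so its level depends on the transcription of the hairpin's locus and on its processing. In the RefSeq annotation (build GRCr8) the miR-551b hairpin lies within the span of Egfem1, a protein-coding gene on chromosome 2, and whether that place is exonic or intronic was not analysed here. The miR-344 family is a rodent family that was first cloned from rat cortical neurons. Its 7 hairpins lie together on chromosome 1 with 8 other annotated genes among them, and 3 further genes separate them from Ndn, one of the imprinted genes known from Prader-Willi syndrome.

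The hairpins of the leading pair are shown first, as RefSeq gives them, because the measured 3p arm (capitals) is what the tables count.
miR-551b hairpin: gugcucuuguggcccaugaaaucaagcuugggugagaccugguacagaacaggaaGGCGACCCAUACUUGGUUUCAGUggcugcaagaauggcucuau
miR-344a-1 hairpin: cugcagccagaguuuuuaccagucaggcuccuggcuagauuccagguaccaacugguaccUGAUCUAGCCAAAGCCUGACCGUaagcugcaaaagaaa

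The mature sequences of the 5 miRNAs follow with the seed in capitals, to show which of them could address the same targets. RefSeq lists miR-344a-3p as miR-344-3p, and it was matched through the synonym of its hairpin; the other 4 matched by name.
miR-551b-3p: gGCGACCCauacuugguuucagu
miR-344a-3p: uGAUCUAGccaaagccugaccgu
miR-344b-1-3p: gAUAUAACcaaagcccgacugu
miR-344b-5p: aGUCAGGCugcugguuauauuc
miR-344g: aGUCAGGCuccuggcaggaguc

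The leading pair shared no seed with each other. The longest run of bases common to both was 4 long. Neither seed occurred in any other of the 693 mature rat miRNA names in RefSeq. The seed of miR-551b-3p contains a CG dinucleotide, as do 91 of those 693 (13.1%). Within the family, miR-344b-5p and miR-344g had the same seed as each other, and miR-344b-1-3p had the seed of miR-410-3p, a miRNA of the imprinted Dlk1-Dio3 cluster. miR-344b-1-3p shared the run ccaaagcc of 8 bases with miR-344a-3p but not its seed. A second hairpin, miR-344a-2, carries a near copy of miR-344a-3p with 1 substitution, C21U, counted from the 5′ end of miR-344a-3p and shown in capitals here.
miR-344a-2 stretch: ugaucuagccaaagccugacUgu
The substitution lies outside the seed. The sources used here do not say how reads from this copy were counted, so the miR-344a-3p counts may hold reads of both hairpins.

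miR-551b-3p, which was nearly absent from normal mucosa, was abundant enough to be counted at least 174 times in every XLHZ library. It had 241, 174, 226 and 193 counts in XLHZ libraries 1 to 4. In model libraries 1 to 4 it had 272, 1574, 283 and 7 counts. In normal libraries 1 to 4 it had 15, 6, 9 and 4 counts. The XLHZ libraries lay close together and far above all normal libraries, whereas the model libraries ran from the normal level to far above every XLHZ library.

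Scaled to a common library size with TMM factors and given as CPM, the XLHZ level of miR-551b-3p was 19.4 ± 3.35 CPM (mean ± SD, n = 4 here and below). The model level was 57.5 ± 77.5 CPM and the normal level 0.792 ± 0.508 CPM. Library by library these were 23.3, 16.9, 21.0 and 16.4 CPM in XLHZ, 27.2, 172, 30.3 and 0.592 CPM in model, and 1.50, 0.532, 0.801 and 0.336 CPM in normal mucosa. Each XLHZ library was between 10.9 and 15.6 times the highest normal library. Model libraries 1, 2 and 3 were 18.2, 115 and 20.2 times the highest normal library, and model library 4 was 0.395 times it. The 7 counts in model library 4 have an exact 95% Poisson interval of 2.81 to 14.4 counts, which covers counting error only and overlaps the intervals of all 4 normal libraries (1.09 to 24.7 counts over the group). A difference between model library 4 and normal mucosa was therefore not detectable at this depth.

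miR-344a-3p started from a higher level in normal mucosa and differed less. It had 191, 237, 223 and 179 counts in XLHZ libraries 1 to 4. In model libraries 1 to 4 it had 116, 1361, 337 and 64 counts. In normal libraries 1 to 4 it had 92, 55, 81 and 53 counts. All XLHZ libraries again lay above all normal libraries, and model libraries 2 and 4 were again the highest and the lowest of their group.

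The CPM of miR-344a-3p were 18.5, 22.96, 20.7 and 15.2 in XLHZ libraries 1 to 4, 11.6, 149, 36.1 and 5.41 in model libraries, and 9.19, 4.88, 7.21 and 4.45 in normal libraries. The group levels were 19.3 ± 3.33 CPM in XLHZ, 50.4 ± 66.8 CPM in model and 6.43 ± 2.20 CPM in normal mucosa. XLHZ libraries were 1.65 to 2.50 times the highest normal library. Model library 1 was 1.26 times the highest normal library, model libraries 2 and 3 were 16.2 and 3.92 times, and model library 4 was 0.589 times. The gap between model library 1 and the highest normal library was small: exact Poisson intervals of their counts, 95.9 to 139 and 74.2 to 113, overlapped.

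**Figure D1:**
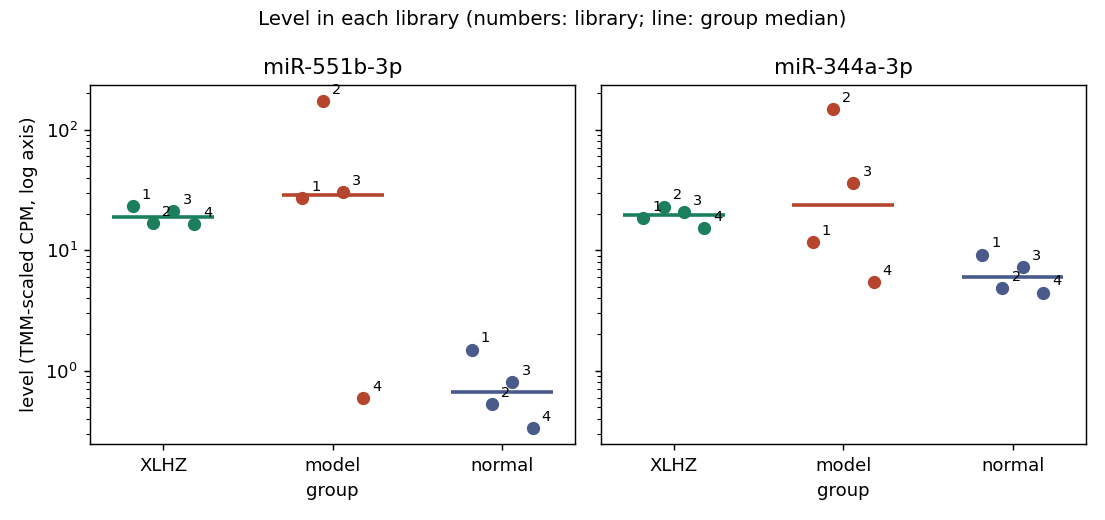
Level of miR-551b-3p (left) and miR-344a-3p (right) in TMM-scaled CPM on a log axis, for the XLHZ, model and normal groups; each point is a library with its number, and lines are group medians. The 4 XLHZ libraries form a tight group above all normal libraries in both panels, while model library 2 is highest (172 and 149 CPM) and model library 4 (0.592 and 5.41 CPM) sits among the normal libraries.

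For each of the pair 7 of 8 exposed libraries lay above the highest normal library, all 4 XLHZ libraries and model libraries 1, 2 and 3. The exception, model library 4, was the same for both. For miR-344a-3p, model library 1 was only 1.26 times the highest normal library. The pair was chosen for being higher after exposure, so this count is a description. The share of all miRNAs reaching it is not given here. Model library 4 was not low for every miRNA that differed after exposure: miR-20a-3p, the minor arm of a miR-17-92 hairpin, stood at 22.3 CPM there, against 0.504 to 0.801 CPM in normal libraries. For that miRNA all 8 exposed libraries exceeded the highest normal library. Whether model library 4 is what its label says could not be settled from these values, and the model means, their spread and the count of 7 of 8 all include it. Without it the model level was 76.5 ± 82.7 CPM for miR-551b-3p and 65.5 ± 73.1 CPM for miR-344a-3p (SD, n = 3). The log2 fold change of XLHZ against model was then -2.02 (SE 0.63) and -1.80 (SE 0.71), with an edgeR adjusted p = 0.307 for each. The unadjusted edgeR p-values were 0.0118 and 0.0326, in a fit where 58 of 411 miRNAs had an unadjusted p under 0.05.

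In edgeR fits the log2 fold change of miR-551b-3p was 4.59 (SE 0.37) in XLHZ against normal mucosa and 6.18 (SE 1.37) in model against normal mucosa. That of miR-344a-3p was 1.56 (SE 0.25) and 2.96 (SE 0.91) in the same comparisons. Both comparisons share the 4 normal libraries, and the pair was chosen from them, so these values describe the choice. The median over all miRNAs tested was -0.0040 and -0.0072. miR-551b-3p ranked 2 of 401 and 2 of 403 by fold change, and miR-344a-3p ranked 4 and 3. Without model library 2 the model against normal values were 4.61 (SE 1.06) for miR-551b-3p and 1.45 (SE 0.58) for miR-344a-3p. In XLHZ against normal mucosa 16 of 401 tested miRNAs (3.99%) had all XLHZ libraries above all normal libraries, and in edgeR 4 (0.998%) were higher at an adjusted p under 0.05, or 1 in a fit of all 12 libraries. These shares are given as background, and nothing is read from them about the pair. In model against normal mucosa the corresponding shares were 1.49% and 0.248% of 403. Neither of the pair lay wholly above the normal range, since model library 4 overlapped it, and the 1 miRNA past the threshold was miR-20a-3p.

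In rank among the miRNAs with any count in a library, miR-551b-3p stood between places 239 and 258 in XLHZ libraries. It was at places 224, 130, 222 and 414 in model libraries 1 to 4 and between 373 and 454 in normal libraries, of 530 to 561 miRNAs with counts. miR-344a-3p stood between places 232 and 261 in XLHZ libraries, at 273, 134, 207 and 321 in model libraries 1 to 4, and between 285 and 318 in normal libraries. In model library 2 the pair thus held places 130 and 134 of 551, and in the XLHZ group neither left the middle of the list.

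The ratio between the pair within a library does not depend on library size. miR-551b-3p had 1.26, 0.734, 1.01 and 1.08 counts for each count of miR-344a-3p in XLHZ libraries 1 to 4. In model libraries 1 to 4 the ratio was 2.34, 1.16, 0.840 and 0.109. In normal libraries 1 to 4 it was 0.163, 0.109, 0.111 and 0.0755. Of the exposed libraries, 7 had ratios above the whole normal range, and model library 4 lay inside it. The ratio was built from the values that chose the pair and is given without a test.

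**Figure D2:**
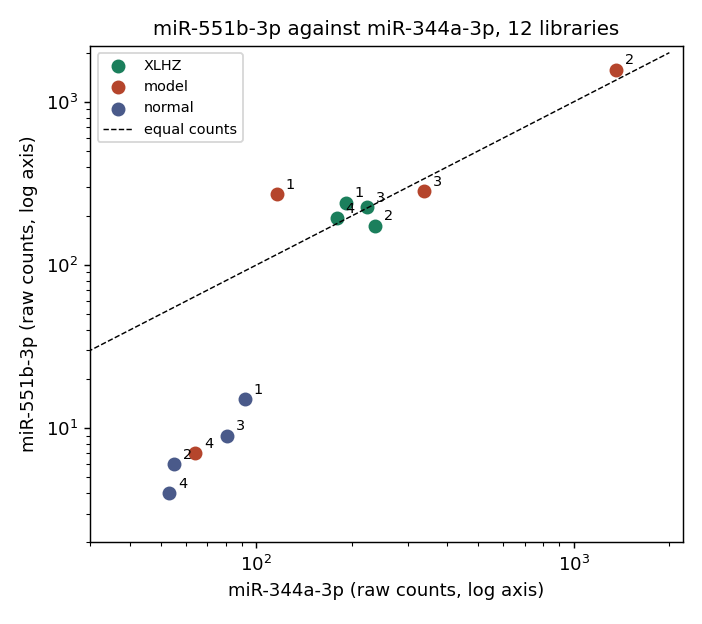
Raw counts of miR-551b-3p (y, log axis) against miR-344a-3p (x, log axis) in the 12 libraries, numbered within the XLHZ, model and normal groups; the dashed line marks equal counts. XLHZ libraries cluster on the line, model library 2 lies on it at the upper end, model library 1 lies above it with a ratio of 2.34, and model library 4 falls among the normal libraries at a ratio of 0.109.

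The comparison of XLHZ with model mucosa asks whether the formula changed the level in exposed mucosa, and it did not choose the pair. The group means were lower with the formula, 19.4 against 57.5 CPM for miR-551b-3p and 19.3 against 50.4 CPM for miR-344a-3p, but neither difference passed. For miR-551b-3p the log2 fold change was -1.59 (SE 1.05, 95% interval -3.95 to 0.78, adjusted p = 0.743 by edgeR's quasi-likelihood test, Benjamini-Hochberg over 402 miRNAs). For miR-344a-3p it was -1.40 (SE 0.85, 95% interval -3.31 to 0.51, adjusted p = 0.729, same test). The unadjusted p-values in edgeR were 0.164 and 0.133, in a comparison where 17 miRNAs (4.23%) had an unadjusted p under 0.05. As folds, the intervals run from 0.0646 to 1.71 and from 0.101 to 1.43 of the model level, so they include both a marked lowering and a rise. One miRNA of 402 (0.249%) passed in this comparison, miR-320-3p, which is named here after its value was seen. With XLHZ library 1, XLHZ library 4 or any of the 4 model libraries left out, 0 passed in edgeR, with 6 to 58 at an unadjusted p under 0.05, and DESeq2 on all 8 libraries called 1.

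The difference did not remain when model library 2 was left out. That library held 73.7% of all miR-551b-3p counts of the model group and 72.5% of the miR-344a-3p counts, and it was 5.68 and 4.13 times the next highest model library. Without it the log2 fold change was 0.0051 (SE 0.85) for miR-551b-3p and 0.15 (SE 0.53) for miR-344a-3p, with edgeR adjusted p of 0.996 and 0.923. Over the settings with an adjusted p (edgeR and DESeq2) it ran from 0.307 to 0.996 for miR-551b-3p and from 0.307 to 0.988 for miR-344a-3p, and the lowest was without model library 4. These values without model library 2 still hold the low model library 4. For miR-551b-3p the median of the other 3 model libraries was 27.2 CPM, above the XLHZ median of 18.9 CPM. For miR-344a-3p it was 11.6 CPM, below the XLHZ median of 19.6 CPM. Of the model libraries, 3 lay above all XLHZ libraries and 1 below all of them for miR-551b-3p, and 2 lay above and 2 below for miR-344a-3p. An exact permutation test of the mean log2(CPM + 0.5), which gives each library the same weight, found differences of -0.025 for miR-551b-3p and -0.35 for miR-344a-3p (p = 1 and p = 0.771, two-sided, n = 4 each).

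**Figure D3:**
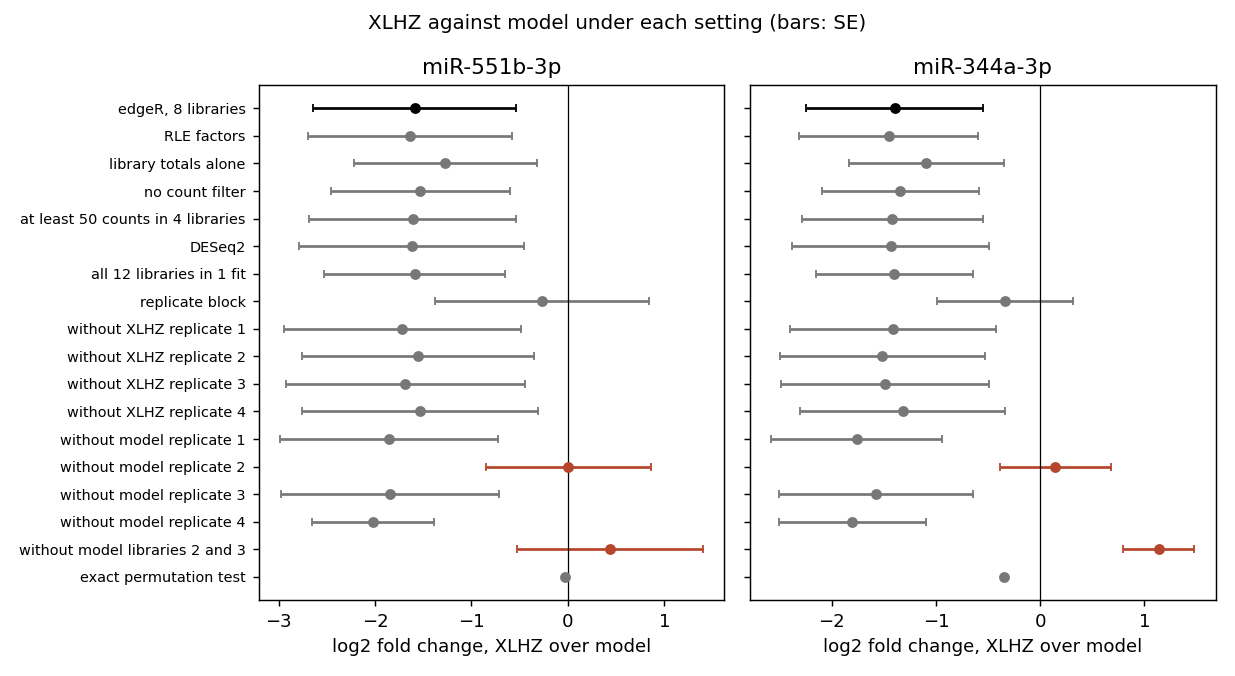
Log2 fold change of XLHZ over model for miR-551b-3p (left) and miR-344a-3p (right) under each setting; bars are standard errors, black marks edgeR on all 8 libraries, grey the settings with the same sign and red those with the opposite sign, and the permutation test's value is a difference in mean log2(CPM + 0.5). With all 8 libraries in edgeR the values are -1.59 and -1.40, and without model library 2 they are 0.0051 and 0.15.

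The model libraries were also the most widely spread. The coefficient of variation of miR-551b-3p was 17.3% in XLHZ libraries, 135% in model libraries and 64.2% in normal libraries. For miR-344a-3p it was 17.2%, 132% and 34.2% in the same order of groups. The highest library exceeded the lowest 1.42-fold in XLHZ, 291-fold in model and 4.46-fold in normal mucosa for miR-551b-3p, and 1.51-fold, 27.5-fold and 2.06-fold for miR-344a-3p. No test of spread was made, and the low counts in normal libraries add counting error to their spread.

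The levels of both miRNAs can be put in order by group median. For miR-551b-3p the medians were 18.9 CPM in XLHZ, 28.7 CPM in model and 0.666 CPM in normal mucosa. For miR-344a-3p they were 19.6, 23.8 and 6.04 CPM in the same groups. The XLHZ median lay inside the model range for each of the pair, so these neighbours in the order do not differ beyond their spread.

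The other miR-344 miRNAs stayed at or under 3 counts in every library. miR-344b-1-3p had 1, 2, 0 and 2 counts in XLHZ libraries 1 to 4, 3, 1, 0 and 1 in model libraries, and 2, 1, 2 and 2 in normal libraries. miR-344b-5p had 7 counts over all 12 libraries, 3 in XLHZ, 1 in model and 3 in normal mucosa. miR-344g had no counts in XLHZ or normal libraries and 4 in model mucosa, 1 in library 1 and 3 in library 2. None of the 3 passed the filter on low counts, so no test or fold change is given. A count of 0 has an exact 95% Poisson interval of up to 3.69 counts, again for counting error alone. For scale, 3 counts are a level of 0.260 to 0.330 CPM depending on the library, here on library totals without TMM factors. Of all miR-344 counts, miR-344a-3p held 98.9% to 99.2% in XLHZ, 96.7% to 100% in model and 94.6% to 98.2% in normal libraries. The clustered relatives of miR-344a-3p were thus not detectably higher in model library 2, where miR-344a-3p itself reached 1361 counts: miR-344b-1-3p and miR-344b-5p had 1 count each there, and miR-344g had 3, within the interval of a count of 0.

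miR-410-3p, which has the seed of miR-344b-1-3p, was also scarce, at 0.372 to 0.967 CPM in XLHZ, 0.200 to 1.20 CPM in model and 0.168 to 0.499 CPM in normal libraries.

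Among 397 other miRNAs with a mean of at least 1 CPM, each of the pair was the closest to the other, with a Pearson r of 0.914 for log2(CPM + 0.5) over the 12 libraries and 0.878 over the 8 exposed ones. These and the following coefficients describe points that share their libraries and groups, and the pair had been chosen for a common difference between groups. Among the exposed libraries, model library 2 was the highest and model library 4 the lowest for both miRNAs. Within the XLHZ group their order differed, with miR-551b-3p highest in library 1 and miR-344a-3p highest in library 2. Next closest to miR-551b-3p were miR-20a-3p (r = 0.750), miR-139-3p (0.713), miR-493-5p (0.664), miR-384-5p (0.660) and miR-139-5p (0.639). Next closest to miR-344a-3p were miR-384-5p (r = 0.756), miR-139-3p (0.748), miR-380-5p (0.744), miR-409b (0.741) and miR-138-5p (0.733). miR-139 lies in an intron of Pde2a, miR-493 and miR-380 belong to the Dlk1-Dio3 cluster, and miR-138 and miR-384 are known from neurons.

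The likeness to miR-20a-3p rested on the difference between exposed and normal libraries. Over the 8 exposed libraries its r with miR-551b-3p was 0.076. miR-20a-3p had 28.6, 19.2, 21.5 and 27.0 CPM in XLHZ libraries 1 to 4 and 28.4, 18.1, 147 and 22.3 CPM in model libraries, so its highest library was model library 3 and not model library 2. For miR-384-5p the r over exposed libraries was 0.878 with miR-551b-3p and 0.894 with miR-344a-3p. Its levels spanned far less, 65.0 to 81.7 CPM in XLHZ, 56.5 to 113 CPM in model and 60.6 to 79.3 CPM in normal libraries, with model library 2 highest and model library 4 lowest of the model group. miR-138-5p ran likewise, at 58.0 to 156 CPM in XLHZ, 87.3 to 425 CPM in model and 90.2 to 149 CPM in normal libraries, and its highest value was in model library 2.

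**Figure D4:**
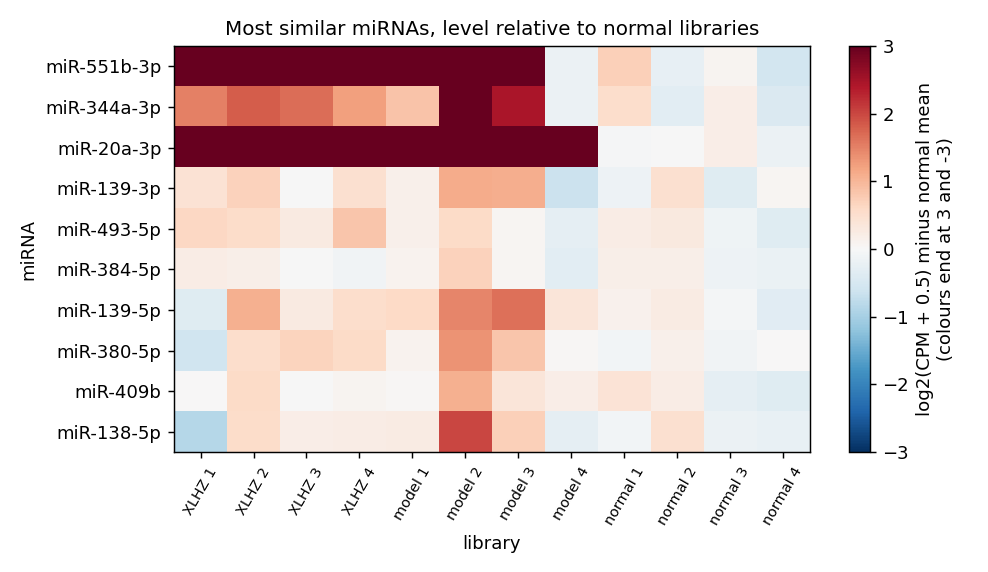
Level of miR-551b-3p, miR-344a-3p and the miRNAs most like them in each library, as log2(CPM + 0.5) minus the mean of the normal libraries, with colours ending at 3 and -3. The first 3 rows are high in exposed libraries, except that model library 4 is at the normal level for miR-551b-3p and miR-344a-3p but not for miR-20a-3p; the other rows stay nearer to the normal mean, and miR-138-5p is highest in model library 2 (425 CPM).

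Markers of other cell types moved with some of these libraries. The libraries held 9094962 to 11556058 counts each. Gland and surface epithelium, the miR-200 family in 9 rows led by miR-200a-3p and miR-200b-3p, gave 73136 to 85171 CPM in XLHZ, 54147 to 85725 CPM in model and 68204 to 80518 CPM in normal libraries, and the lowest was model library 2. The smooth muscle list, 4 arms of miR-143 and miR-145 led by miR-143-3p and miR-145-5p, gave 97611 to 277213 CPM in XLHZ, 145152 to 403505 CPM in model and 133247 to 219379 CPM in normal libraries. Model library 2 was the highest of all 12 and model library 4 the lowest of its group. The list of neurons and enteric nerves, 20 rows led by miR-9a-5p and miR-128-3p, gave 1120 to 1454 CPM in XLHZ, 1250 to 2275 CPM in model and 1140 to 1424 CPM in normal libraries, with the same libraries at the ends of the model range. Its rows did not all run this way. In model libraries 1 to 4 miR-9a-5p had 394, 706, 542 and 295 CPM, but miR-128-3p had 373, 356, 371 and 349 CPM. The miR-138-5p named above is itself a row of this list. Striated muscle, 9 rows led by miR-1b and miR-133a-3p, gave 4650 to 13294 CPM in XLHZ, 7024 to 24459 CPM in model and 6384 to 10096 CPM in normal libraries. None of the smooth muscle or gland epithelium rows was at 0 throughout a group, and 1 nerve row was at 0 in all XLHZ and in all normal libraries. Fewer cells of a type and less RNA per cell cannot be told apart in such bulk samples.

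The part of tissue composition in the model values was not tested. In the XLHZ group, 2 of 4 smooth muscle sums and 2 of 4 nerve sums lay within the normal range, with 1 above and 1 below it in each list. miR-551b-3p lay at 10.9 to 15.6 times its highest normal level in these libraries and miR-344a-3p at 1.65 to 2.50 times. Within the model group, both miRNAs had the order of the smooth muscle sums, with library 4 lowest (145152 CPM), then library 1 (215562 CPM), library 3 (356150 CPM) and library 2 (403505 CPM). For miR-551b-3p the places of libraries 1 and 3 are not settled, since their 272 and 283 counts had overlapping exact Poisson intervals. Within the XLHZ group, miR-344a-3p was highest (22.96 CPM) in library 2, which had the highest smooth muscle sum, and miR-551b-3p was highest (23.3 CPM) in library 1, which had the lowest. Without model libraries 2 and 3, which carried the 2 largest shares of miR-143-3p (29.2% and 25.1% of all counts, against 9.39% to 22.98% in XLHZ and 12.3% to 19.2% in normal libraries), the log2 fold change of model against normal was 4.14 for miR-551b-3p and 0.42 for miR-344a-3p. In XLHZ against model mucosa it was then 0.44 and 1.14, with edgeR adjusted p of 0.984 and 0.891 (unadjusted 0.662 and 0.0106). That setting was chosen after seeing the data. Model libraries 2 and 3 were also the highest of their group for both miRNAs, so leaving them out had to lower the model level. Only model libraries 1 and 4 remained, and library 4 was the lowest for both. Nothing about tissue composition is read from this setting.

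The remaining lists did not have model library 2 at one end and model library 4 at the other of the model group, apart from the erythroid and endothelial lists, which ran the opposite way. Erythroid miRNAs, 5 rows led by miR-486 and miR-451-5p, gave 92.7 to 206 CPM in XLHZ, 33.8 to 133 CPM in model and 44.6 to 160 CPM in normal libraries. Endothelial miRNAs, 3 rows led by miR-126a-3p and miR-126a-5p, gave 22162 to 26834, 18191 to 25936 and 22906 to 24246 CPM in XLHZ, model and normal libraries. Squamous epithelium (4 rows led by miR-205 and miR-203a-3p) gave 4028 to 5874, 3638 to 4698 and 4665 to 9740 CPM in the same groups, and endocrine epithelium (5 rows led by miR-375-3p and miR-7a-5p) gave 15684 to 23788, 9724 to 17867 and 18392 to 26387 CPM. Leukocytes (6 rows led by miR-142-3p and miR-150-5p) gave 3520 to 6514, 2646 to 5427 and 3887 to 4844 CPM. Liver and pancreas miRNAs (7 rows led by miR-122-5p and miR-216a-5p) were scarce, at 3.20 to 56.1, 4.92 to 105 and 4.08 to 21.7 CPM in XLHZ, model and normal libraries.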

How the data were processed

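Per the labels' protocols, total RNA of gastric mucosa with integrity numbers above 7.0 was made into QIAseq miRNA libraries and sequenced on Illumina. The submitters' processing notes name Bowtie and DESeq without version. The sources used here do not state the build, the counting rule or the use of molecular identifiers. Per the file headers, the 2 deposited tables (XLHZ with model, model with normal) hold raw counts for each mature miRNA. The deposited CPM columns equal count over column total within 5.0e-05 and were not used further. The tables held 632 and 639 miRNAs, 622 in both; model counts were identical for 621, and the exception, miR-20b-3p, was left out where tables were joined. Rows in 1 table alone had at most 3 counts and were taken as 0 in the other. Replicates differed beyond sampling noise in every pair (lowest chi-square/df 172).

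For each comparison its 8 libraries alone were fitted with edgeR 4.0.16 in R 4.3.3 (glmQLFit, glmQLFTest, TMM, filterByExpr with a minimum count of 10), with Benjamini-Hochberg adjustment over all miRNAs tested at 0.05. SE was taken as |log2 fold change|/sqrt(F). Levels are CPM with TMM factors over all 12 libraries. The fits were also run on simulated data, and the outcome is not given here. Named miRNAs are the members, the 5 nearest to each of the pair by Pearson r, and miRNAs sharing a seed with a member. Each marker list names its 2 most abundant rows and is given as a summed level. Members, lists and tests were chosen with earlier results of these data known. Alternatives were RLE factors, library totals, DESeq2 1.42.0, no count filter, a filter of 50 counts in 4 libraries, 1 fit of all 12 libraries, a replicate block, each library left out, and an exact permutation test. Of 648 joined miRNAs, 587 matched RefSeq by name.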

Additional observations from a re-analysis of the deposited data

Results flagged for a closer look

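Both values that stood apart from the rest of their group are counts at the floor. Normal library 2 had 1 count of miR-344b-1-3p, and the other 3 normal libraries had 2 each. Model library 2 had 1 count of miR-344b-5p, and the other 3 model libraries had 0. Chance gives such a gap in about 1 in 20 groups of normally distributed values. That rate does not hold for tied counts at the floor, and it was not checked for the CPM values. Model library 2 did not pass this measure for miR-551b-3p or miR-344a-3p, although it was 5.68 and 4.13 times the next highest model library. It held 73.7% and 72.5% of the model counts, so the measure does not show that this library was unremarkable.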

How the results depend on the processing

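In XLHZ against model mucosa neither miR-551b-3p nor miR-344a-3p passed under any setting run. The sign turned without model library 2 (log2 fold change 0.0051 and 0.15) and without model libraries 2 and 3 (0.44 and 1.14), which was chosen after the data had been seen. With each library left out in turn the values ran from -2.02 to 0.0051 for miR-551b-3p and from -1.80 to 0.15 for miR-344a-3p. In XLHZ against normal mucosa they ran from 4.34 to 5.08 and from 1.43 to 1.78, and in model against normal mucosa from 4.61 to 6.67 and from 1.45 to 3.37. The count of miRNAs called in model against normal mucosa was 1 in edgeR, 2 with library totals alone, 5 with DESeq2, 3 with no count filter, 2 with a filter of 50 counts in 4 libraries, 4 with all 12 libraries in 1 fit, and 1 to 4 with each library left out (4 without model library 4). In XLHZ against model mucosa it was 1, with 0 to 1 when a library was left out, and 0 without model libraries 2 and 3 (edgeR, with 7 at an unadjusted p under 0.05; DESeq2 on all 8 libraries called 1). In XLHZ against normal mucosa it was 6, with 2 in 1 fit of all 12 libraries and 4 to 7 with each library left out. The cause was not tested. On library totals alone the median miRNA moved to -0.12 in model against normal and 0.17 in XLHZ against model mucosa, so folds there are relative to that shift. No clear pairing by replicate number was seen, and with 4 libraries per group this check cannot exclude one. Same-numbered model and normal libraries had deviations correlated between -0.435 and 0.397, and 3 of 8 libraries were nearest to their own number. For XLHZ and model libraries the range was -0.172 to 0.513 (4 of 8), and for XLHZ and normal libraries -0.109 to 0.358 (3 of 8). With the replicate block the log2 fold changes of XLHZ against model were -0.27 (SE 1.11) and -0.33 (SE 0.65), and the counts called were 1, 1 and 5 in model against normal, XLHZ against model and XLHZ against normal. With the filter of 50 counts in 4 libraries miR-551b-3p was not tested in model against normal mucosa. Depth limits what can be said of miR-344b-1-3p, miR-344b-5p and miR-344g, which had at most 3 counts in a library.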
